A study of Homo sapiens with 4 samples.

Results

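The genes described here encode 10 cell surface proteins of multiple myeloma that antibodies, bispecific molecules or engineered T cells are directed against, or that were proposed for it: SDC1, TNFRSF17, CD38, GPRC5D, FCRL5, CD47, CD74, ICAM1, TNFRSF13B and NCAM1. They were taken by symbol from a fixed list, among 15201 genes of the deposited table. The list was not built by a rule on measured values, but earlier results of these data were known when it was chosen. Of the 10 genes, 7 had a value. FCRL5, ICAM1 and TNFRSF13B had none and are not analysed here. The lowest row mean in the table was 0.5 FPKM, so a gene low in every library may have no row. Why these 3 had none was not tested. The libraries came from ARP-1, an established line of human myeloma cells. The groups were ARP-1 cells resistant to carfilzomib (CfzR, 2 libraries), a drug that inhibits the proteasome, and wild-type ARP-1 cells (WT, 2 libraries). The labels do not say how resistance was raised, whether the resistant cells are a single clone, or whether drug was present at harvest. They also do not say that replicates were separate cultures, so the p-values below measure the spread between these libraries only.

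Plasma cells, and the myeloma cells derived from them, carry a small set of surface proteins that other blood cells share only in part. SDC1 (CD138) is a heparan sulfate proteoglycan that binds growth factors. TNFRSF17 (BCMA) and TNFRSF13B (TACI) receive the survival ligands APRIL and BAFF, and CD38 is an ectoenzyme that consumes NAD. An antigen that becomes scarce on a cell gives a therapy directed at it less to bind, which is the reason its transcript level is of interest after resistance to another drug.

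Transcript levels were given by the authors as FPKM, a fragment count divided by transcript length and by library size, so different genes can be ranked within a library. The values hold no counts, so depth is unknown and counting error cannot be stated. CfzR replicate 1 stood apart from its partner: across 12896 genes, which are not independent, the log2 difference between CfzR replicates 1 and 2 had a Spearman correlation of 0.466 with transcript length, against 0.146 for the WT pair. With GC content the correlation was -0.350 for the CfzR pair and 0.0793 for the WT pair. The summed FPKM of CfzR replicate 1 was 673265, and that of the other 3 libraries lay between 877849 and 955284. Of 10 plasma cell markers 9 had a value, SDC1 and TNFRSF17 among them. Of these 9, 0 passed the test described below. The lowest value among the 9 was 40.6 FPKM, of POU2AF1 in CfzR replicate 2. Of 7 T and NK cell markers 0 had a value, and of 6 B cell markers BACH2 alone did, at 1.67 and 1.11 FPKM in CfzR and 2.14 and 1.27 in WT. Of 6 monocyte markers CD68 alone had a value, 2.10 and 1.09 FPKM in CfzR and 0.681 and 0.848 in WT. Of 7 epithelial and stromal markers 3 had one, with sums of 8.11 and 8.45 FPKM in CfzR and 10.3 in both WT libraries. Among them KRT8 and KRT18 were lower and PDGFRB higher in both CfzR libraries, with adjusted p of 0.394, 0.283 and 0.526 by limma. The part of these markers in the results below was not tested. In bulk RNA, fewer cells that carry a transcript and less of it per cell cannot be told apart.

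**Figure D1:**
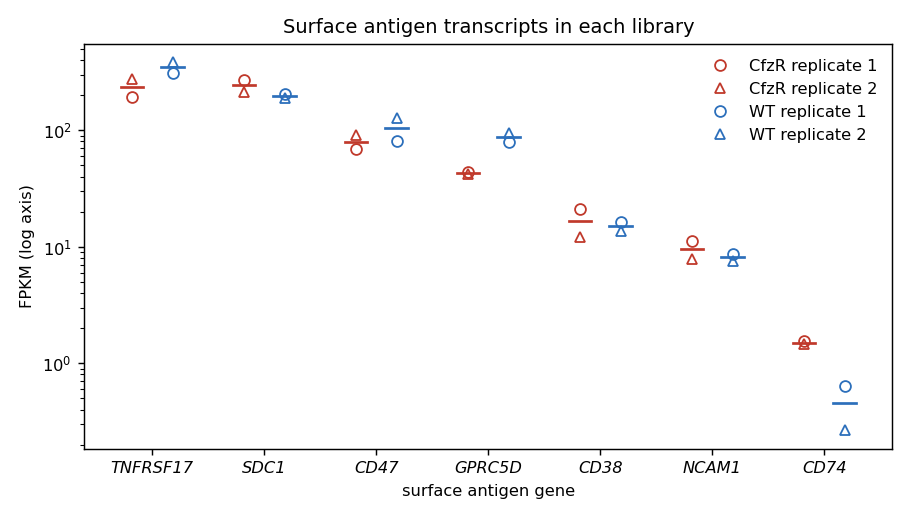
FPKM on a log axis of the 7 surface antigen genes with a value, in each library of CfzR (red, left of each pair) and WT (blue, right); circles are replicate 1, triangles replicate 2, and short lines are group means. GPRC5D was at 44.1 and 42.4 FPKM in CfzR against 79.6 and 93.7 in WT, while CD38 and NCAM1 overlapped.

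The order of the antigens was nearly the same in resistant and wild-type cells. In CfzR the means ran from SDC1 at 242 FPKM and TNFRSF17 at 234 through CD47 at 79.9, GPRC5D at 43.2, CD38 at 16.5 and NCAM1 at 9.55 down to CD74, which was under 2 FPKM. In WT they ran from TNFRSF17 at 347 and SDC1 at 197 through CD47 at 104, GPRC5D at 86.6, CD38 at 14.9 and NCAM1 at 8.12 down to CD74, which was under 1 FPKM. SDC1 and TNFRSF17 overlapped in CfzR, and CD47 and GPRC5D overlapped in WT. All other neighbours in either order were apart in both libraries of the group. Within single libraries, only the top pair changed places: SDC1 was above TNFRSF17 in CfzR replicate 1 and below it in the other 3 libraries.

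Against the whole table, TNFRSF17 and SDC1 were among the most abundant transcripts in every library. TNFRSF17 was at or above 97.0% of the genes in both CfzR libraries and 97.4% and 97.6% in WT. SDC1 was at or above 97.8% and 96.1% of genes in CfzR, and 96.1% and 95.3% in WT. GPRC5D stood at 85.0% and 82.4% in CfzR and 89.9% and 90.7% in WT, so both resistant libraries placed it lower. CD38 lay in the middle range, at 71.7% and 59.3% in CfzR and 65.7% and 61.3% in WT.

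The comparison of CfzR with WT asks which targets a carfilzomib-resistant myeloma line still transcribes. It was tested with limma over the 13411 genes whose mean reached 1 FPKM, on log2(FPKM + 1), which understates changes of low genes. A gene under 1 FPKM in 1 group could reach that mean through the other group alone, so its difference is partly selected. The threshold was a Benjamini-Hochberg adjusted p of 0.05. Among all genes tested, 0.246% passed as higher in CfzR and 0.104% as lower. Of the 10 antigens, 6 were tested, and 0 of them passed. At an unadjusted p under 0.05 there was 1 of 6, GPRC5D, which was lower in CfzR, where 5.81% of all genes were lower and 5.32% higher by that measure. Of the 6 tested, 3 were on the positive and 3 on the negative side, and their median log2 fold change was -0.13 against -0.02 over all genes. Both CfzR libraries lay above both WT libraries for 1 of them, SDC1, and below for 2, TNFRSF17 and GPRC5D. Over all genes these shares were 22.1% and 22.6%.

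**Figure D2:**
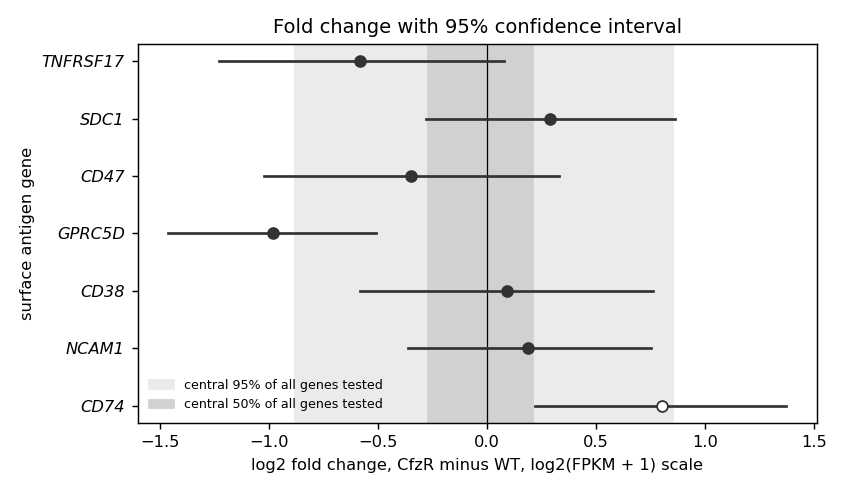
Log2 fold change, CfzR minus WT, on the log2(FPKM + 1) scale for each surface antigen gene, with limma's 95% confidence interval (line, n = 2 libraries each); the open point, CD74, comes from the fit without a filter on low values. Grey bands hold the central 50% and 95% of all genes tested; GPRC5D at -0.98 lies outside the wider band, whose lower edge is -0.88.

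GPRC5D, an orphan G protein-coupled receptor and the target of talquetamab, differed most among the tested antigens. It stood at 44.1 and 42.4 FPKM in CfzR, against 79.6 and 93.7 FPKM in WT. The resistant libraries were close to each other and both were below the lower WT library. The means were 43.2 ± 1.19 FPKM in CfzR and 86.6 ± 9.94 in WT (SD, n = 2 each), a ratio of 0.499. The log2 fold change was -0.98 (SE 0.20, 95% confidence interval -1.46 to -0.51), with an unadjusted limma p of 0.00176 and an adjusted p of 0.138, so it did not pass. Of all genes tested, 1.61% had a lower log2 fold change. Without CfzR replicate 1 the log2 fold change was -1.01, and with transcript length and GC content taken out it was -0.84.

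GPRC5D (ENSG00000111291) lies on the minus strand of chromosome 12, from 12940775 to 12952147 in GRCh38 (GENCODE release 29, which also gives the positions below; the authors' own build is not known here). The antisense gene GPRC5D-AS1 covers it whole, from 12927726 to 12984645 on the plus strand. No source used here says whether fragments were counted by strand, so reads of the pair cannot be told apart with certainty. GPRC5D-AS1 was listed at 0.371 and 0.919 FPKM in CfzR and 1.89 and 1.42 FPKM in WT, far under GPRC5D, and it too was lower in both CfzR libraries (log2 fold change -0.71, adjusted p = 0.431).

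Ratios between antigens within a library do not change when the library is scaled. The length and GC trends between the CfzR replicates do not cancel in them. The longest transcripts ran from 994 bases for TNFRSF17 to 6796 for CD47, and the part of these trends in the ratios was not tested. Of the 21 pairs among the 7 antigens, 13 had ratios that did not overlap between CfzR and WT, including all 6 pairs with GPRC5D and all 6 with CD74. CD74 was not tested and stood at 0.639 and 0.265 FPKM in WT, near the lower limit of the table. Its row may be present only through its CfzR values, so its 6 pairs are not free of selection. Pairs that share a gene are not independent. The share over all pairs of genes in the table was not computed, so the count is a description only. SDC1 exceeded GPRC5D by 6.16 and 5.03 times in CfzR, against 2.57 and 2.02 times in WT. TNFRSF17 exceeded GPRC5D by 4.40 and 6.49 times in CfzR, against 3.92 and 4.07 times in WT, a smaller separation. With 2 libraries per group a two-sided exact permutation test of a single ratio cannot go below p = 0.333, so none is given.

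**Figure D3:**
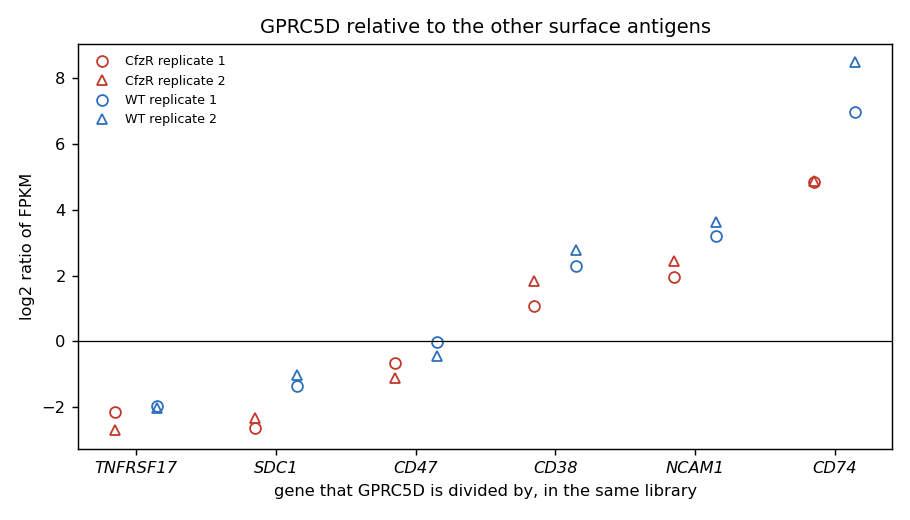
Log2 ratio of GPRC5D to each other surface antigen gene within the same library, for CfzR (red, left of each pair) and WT (blue, right); circles are replicate 1 and triangles replicate 2. In all 6 pairs both CfzR ratios lie below both WT ratios, with the narrowest gap for TNFRSF17. CD74 was not tested, and its row may be present only through its CfzR values.

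TNFRSF17, which encodes BCMA, the target of several T cell therapies, stood at 194 and 275 FPKM in CfzR, against 312 and 382 FPKM in WT. Both resistant libraries were lower than both wild-type libraries, with a wide gap within each group. The means were 234 ± 57.5 FPKM in CfzR and 347 ± 49.5 in WT (SD, n = 2 each). The log2 fold change of -0.58 (SE 0.28, 95% confidence interval -1.23 to 0.08) did not pass (limma adjusted p = 0.495). The value was -0.32 without CfzR replicate 1, the lower of the resistant libraries. The ratio of SDC1 to TNFRSF17 was 1.40 and 0.774 in CfzR, and 0.657 and 0.497 in WT, without overlap. TNFRSF17 (ENSG00000048462) lies at 11965107 to 11968068 on the plus strand of chromosome 16.

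The partners of BCMA that were measured showed no call. Of 16 listed genes of its ligands, relatives, signalling adaptors and of shedding proteases, 13 were tested, 0 passed and the median log2 fold change was 0.09. Gamma-secretase, which sheds BCMA from the membrane, was represented by APH1A, its most abundant measured subunit, at 156 and 147 FPKM in CfzR and 134 and 128 in WT. PSENEN, another subunit, stood at 61.1 and 81.6 FPKM in CfzR and 88.2 and 70.4 in WT. APH1A was higher in both CfzR libraries without passing (adjusted p = 0.705 by limma), and PSENEN overlapped. At an unadjusted p under 0.05 there was 1 gene of 13, on the higher side, where 5.32% of all genes were by that measure. It was the adaptor TRAF3 (log2 fold change 0.57, adjusted p = 0.408), named after its values were seen.

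SDC1, the CD138 antigen used to isolate plasma cells, stood at 272 and 213 FPKM in CfzR, against 205 and 189.5 FPKM in WT. Both resistant libraries were higher, but the lower of them was close to the upper WT library. The log2 fold change was 0.29 (SE 0.24, 95% confidence interval -0.28 to 0.86) and did not pass (limma adjusted p = 0.661). The value was 0.11 without CfzR replicate 1. SDC1 (ENSG00000115884) lies at 20200797 to 20225433 on the minus strand of chromosome 2. Of 24 listed genes of the other syndecans and of heparan sulfate synthesis and remodelling, 17 were tested, 0 passed and 0 had an unadjusted p under 0.05, with a median log2 fold change of 0.10. B3GAT3, which completes the linker that carries the sugar chain, stood at 76.7 and 109.7 FPKM in CfzR and 81.8 and 90.0 in WT. SDCBP (syntenin), which binds the tail of syndecans, stood at 70.2 and 68.9 FPKM in CfzR and 55.0 and 60.7 in WT. B3GALT6, another enzyme of the linker, stood at 25.5 and 28.6 FPKM in CfzR and 28.2 and 33.0 in WT. Of these, SDCBP alone did not overlap.

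CD38, the target of daratumumab and isatuximab, stood at 21.0 and 12.0 FPKM in CfzR, against 16.3 and 13.6 FPKM in WT. The resistant libraries lay on either side of the wild-type pair. The log2 fold change was 0.09 (SE 0.28, 95% confidence interval -0.58 to 0.76, limma adjusted p = 0.913). Its sign was not stable: the value was -0.29 without CfzR replicate 1 and -0.03 without WT replicate 2. CD38 has a long transcript, 5668 bases in its longest form, and with length and GC content taken out its value was -0.05. It lies at 15778275 to 15853230 on the plus strand of chromosome 4 (ENSG00000004468). Of 12 listed genes of NAD use and of the adenosine pathway that follows CD38, 8 were tested and 0 passed, with a median of 0.08. PARP1, a nuclear NAD consumer, stood at 151 and 196 FPKM in CfzR and 151 and 179 in WT. ADA, which deaminates adenosine, stood at 69.6 and 103 FPKM in CfzR and 159.8 and 197 in WT, without overlap (log2 fold change -1.06, unadjusted p = 0.00525, adjusted p = 0.218). NAMPT, which makes the NAD precursor NMN, stood at 73.3 and 52.6 FPKM in CfzR and 57.4 and 55.3 in WT. With ADA, NMNAT3 had an unadjusted p under 0.05 (log2 fold change 0.86, adjusted p = 0.349), and is named after its values were seen. That made 1 of 8 lower and 1 of 8 higher, where 5.81% of all genes were lower and 5.32% higher by that measure.

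CD47, a membrane protein that restrains phagocytosis through its receptor on macrophages, stood at 68.9 and 91.0 FPKM in CfzR, against 80.1 and 128 FPKM in WT. The groups overlapped, and the WT libraries differed from each other more than the group means did. The log2 fold change was -0.35 (SE 0.29, 95% confidence interval -1.02 to 0.33, limma adjusted p = 0.655), and it was -0.02 without WT replicate 2. When every library was scaled to the same sum of FPKM, the median of all genes moved to 0.22 and CD47 to -0.07, which is below that median. CD47 (ENSG00000196776) lies at 108043094 to 108091862 on the minus strand of chromosome 3. Of 10 listed partners, 4 were tested and 0 passed (0 at an unadjusted p under 0.05), with a median of 0.13. B2M, the shared chain of class I molecules, stood at 1232 and 1507 FPKM in CfzR and 1383 and 1502 in WT. CALR (calreticulin), a signal for engulfment when exposed, stood at 300.5 and 323 FPKM in CfzR and 241 and 247 in WT. QPCTL, the enzyme that modifies CD47 at its SIRPA binding site, stood at 22.3 and 29.3 FPKM in CfzR and 33.9 and 38.2 in WT. CALR was higher and QPCTL lower in both resistant libraries, with adjusted p of 0.581 and 0.471 by limma.

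NCAM1, the neural adhesion molecule CD56 that many myelomas carry, stood at 11.3 and 7.80 FPKM in CfzR, against 8.66 and 7.57 FPKM in WT. The lower CfzR library lay within the WT range. The log2 fold change was 0.19 (SE 0.23, 95% confidence interval -0.36 to 0.75, limma adjusted p = 0.756), and it turned to -0.05 without CfzR replicate 1. NCAM1 (ENSG00000149294) lies at 112961247 to 113278436 on the plus strand of chromosome 11. The intervals of SDC1, CD38 and NCAM1 lay within -1 and 1 on the log2 scale. A p that misses the threshold does not show that levels were equal.

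Partners of ICAM1 and NCAM1 were listed together, and of 17 genes 11 were tested and 0 passed, with a median of 0.12. MSN (moesin), a linker of adhesion receptors to actin, stood at 141 and 94.8 FPKM in CfzR and 113 and 96.4 in WT. ITGAL, the alpha chain of the integrin LFA-1 that binds ICAM1, stood at 101 and 86.4 FPKM in CfzR and 73.2 and 66.3 in WT. EZR (ezrin), a relative of moesin, stood at 64.1 and 64.0 FPKM in CfzR and 57.9 and 62.7 in WT. ITGAL and EZR were higher in both CfzR libraries without passing. ITGB2, the beta chain that LFA-1 needs, was below 1 FPKM in every library and was not tested; it is named after its values were seen. An unadjusted p under 0.05 was reached by 2 of the 11, both lower in CfzR, where 5.81% of all genes were lower by that measure. They were ICAM2 (log2 fold change -0.50, adjusted p = 0.446) and FGFR1, a receptor that NCAM1 engages (-0.98, adjusted p = 0.168). Both are named after their values were seen.

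CD74, the invariant chain of class II molecules and the target of milatuzumab, was close to the lower limit of the table in every library. It stood at 1.55 and 1.45 FPKM in CfzR, against 0.639 and 0.265 FPKM in WT. Both resistant libraries were higher, by a mean ratio of 3.32. With a mean under 1 FPKM over the 4 libraries it was not among the genes tested. In the fit without a filter, over 15201 genes, its log2 fold change was 0.80 (SE 0.24, 95% confidence interval 0.22 to 1.37, limma adjusted p = 0.307). The lowest row mean in the deposited table was 0.5 FPKM, and the WT mean of CD74 was 0.452. Its row may thus be present only through its CfzR values, so this difference is not free of selection. CD74 (ENSG00000019582) lies at 150401637 to 150412929 on the minus strand of chromosome 5. Of 21 listed genes of class II molecules, their control and their processing, 8 were tested and 0 passed (0 at an unadjusted p under 0.05), with a median of 0.09. CIITA, the master activator of class II genes and of CD74, stood at 3.47 and 3.90 FPKM in CfzR and 3.69 and 3.32 in WT, and is named after its values were seen. LGMN, an endosomal protease that processes the invariant chain, stood at 236 and 315 FPKM in CfzR and 309 and 463 in WT. RFXANK, a subunit of the factor RFX that binds class II promoters, stood at 100.5 and 169.9 FPKM in CfzR and 145 and 139 in WT. IFI30, a reductase of the antigen processing pathway, stood at 56.6 and 68.4 FPKM in CfzR and 61.0 and 53.0 in WT. All of these overlapped between groups.

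The promoters of GPRC5D and CD74 are shown because these antigens had the lowest and the highest log2 fold change of the 7. The value of CD74 comes from the fit without a filter. Its row may be present only through its CfzR values, so its place as highest is partly selected. Each is the stretch of 250 bases before the RefSeq start of the gene (GRCh38.p14), 5′ to 3′ on the gene's own strand, at chr12:12952171-12952420 for GPRC5D and chr5:150412911-150413160 for CD74, both on the minus strand. Capitals mark the TATA box, searched as TATAAA, or the CCAAT box, searched as its name, on either strand. The capitals in GPRC5D are the TATA box read from the opposite strand.
GPRC5D: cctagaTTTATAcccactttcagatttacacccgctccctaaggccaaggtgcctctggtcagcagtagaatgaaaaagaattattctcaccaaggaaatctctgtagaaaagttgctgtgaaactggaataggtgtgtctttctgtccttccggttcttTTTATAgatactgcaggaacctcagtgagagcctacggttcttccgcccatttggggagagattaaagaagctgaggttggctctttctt
CD74: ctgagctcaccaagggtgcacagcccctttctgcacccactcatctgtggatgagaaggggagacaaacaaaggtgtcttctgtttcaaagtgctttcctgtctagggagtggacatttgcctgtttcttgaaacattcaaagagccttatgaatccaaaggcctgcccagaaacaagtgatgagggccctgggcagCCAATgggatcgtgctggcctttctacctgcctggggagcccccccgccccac
GPRC5D held 2 matches to the TATA box and none to the CCAAT box, and CD74 held 1 CCAAT box and no TATA box. Over 27305 promoters of the same length, 11.1% held a TATA box and 33% a CCAAT box on either strand. The octamer ATGCAAAT, on either strand, was in neither promoter and in 1.66% of all. The E-box, searched as CANNTG, was in both and in 62.2% of all. The matches describe letters and say nothing of a factor at these sites.

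**Figure D4:**
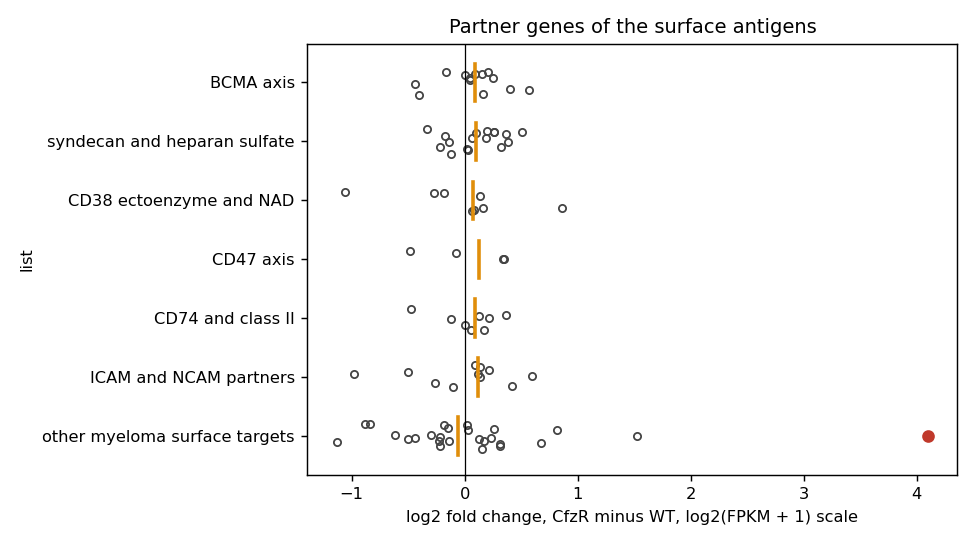
Log2 fold change, CfzR minus WT, of the tested genes of 7 lists (points, spread vertically for visibility), with the list median as an orange bar; the filled red point is the gene past the adjusted threshold. The medians of the 7 lists lie between -0.06 and 0.13, and SLAMF7 at 4.10 stands alone.

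Other myeloma surface targets outside the 10 were listed for comparison, with knowledge of earlier results. Of 44 listed, 26 were tested, 1 passed as higher and 0 as lower, and the median log2 fold change was -0.06. The count of higher genes was 2 without WT replicate 1, without WT replicate 2 and with equal sums of FPKM. The gene that passed was SLAMF7, the target of elotuzumab, at 22.1 and 18.7 FPKM in CfzR, against 0.282 and 0.198 FPKM in WT (log2 fold change 4.10, SE 0.22, limma adjusted p = 5.25e-04). By mean level it stood between GPRC5D and CD38 in CfzR and below CD74 in WT. Its WT mean of 0.240 FPKM was under the filter of 1 FPKM, so it entered the test through its CfzR libraries. Another 3 genes on the higher side, and 4 on the lower, had an unadjusted p under 0.05 without passing. With SLAMF7 that made 4 of 26 higher and 4 of 26 lower. Over all genes tested, 5.32% were higher and 5.81% lower by that measure.

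Of the remaining listed targets, the most abundant ones did not pass. ITGB7, the integrin chain recognised by an antibody that binds its activated form on myeloma cells, stood at 1001 and 1095 FPKM in CfzR and 1104 and 1230.4 in WT. SLC3A2, the heavy chain of amino acid transporters (CD98), stood at 715 and 904 FPKM in CfzR and 1109 and 1163 in WT. BSG (basigin, CD147) stood at 379 and 485 FPKM in CfzR and 527 and 473 in WT. ITGB7 and SLC3A2 were lower in both CfzR libraries and BSG overlapped, with adjusted p of 0.855, 0.564 and 0.762 by limma. CD48, a ligand of the SLAM family, stood at 191 and 237 FPKM in CfzR and 203 and 216 in WT. CD59, an inhibitor of complement lysis, stood at 155 and 156 FPKM in CfzR and 152 and 193 in WT. LY9, a SLAM family receptor named after its values were seen, stood at 4.59 and 3.66 FPKM in CfzR and 0.795 and 0.741 in WT, higher in both CfzR libraries (log2 fold change 1.53, adjusted p = 0.0736 by limma). CD52, the target of alemtuzumab, named after its values were seen, stood at 15.9 and 22.8 FPKM in CfzR and 44.8 and 41.0 in WT (log2 fold change -1.13, adjusted p = 0.138).

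Of the relatives of GPRC5D and FCRL5, FCRLB alone had a value among 10 listed. It stood at 5.13 and 7.32 FPKM in CfzR and 6.74 and 6.51 in WT, with overlap (log2 fold change -0.09, adjusted p = 0.883 by limma).

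The nearest genes on the chromosome were compared for each antigen, 5 tested genes on each side. The stretch they cover ran from 0.804 megabases around CD74 to 6.97 around CD47, so a neighbour need not adjoin the antigen. None of these 10 neighbours passed the adjusted threshold for any of the 7 antigens. Around GPRC5D, 8 of 10 neighbours were on the negative side, as were about 52.9% of all genes tested. GPRC5D-AS1 is among these 8. It covers GPRC5D whole, so its reads cannot be told apart from those of GPRC5D with certainty. The median log2 fold change of these 10 neighbours was -0.32, within a range from -1.24 to 1.22. Of these, GPRC5D-AS1, HEBP1 and the pseudogene RPL13AP20, whose reads may be shared with its parent gene, were lower in both CfzR libraries, 3 of 10 where 22.6% of all genes were. FAM234B and ATF7IP were higher in both, 2 of 10 where 22.1% of all genes were, and all 5 are named after their values were seen. FAM234B, at 3.03 and 2.77 FPKM in CfzR against 0.791 and 0.551 in WT, was at 1.22 on the log2 scale (adjusted p = 0.137). ATF7IP, at 4.78 and 3.51 FPKM in CfzR against 2.63 and 2.47 in WT, was at 0.52 (adjusted p = 0.468). Around TNFRSF17, whose own value was -0.58, the neighbours had a median of 0.03 and a range from -0.33 to 0.39. For the other antigens the medians were 0.08 around SDC1, 0.03 around CD38, 0.31 around CD47, 0.11 around NCAM1 and 0.02 around CD74. Around NCAM1, 8 of 10 neighbours were on the positive side, around CD47 7, and around SDC1 and CD38 6 each. TNFRSF17 and CD74 had 5 on each side.

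**Figure D5:**
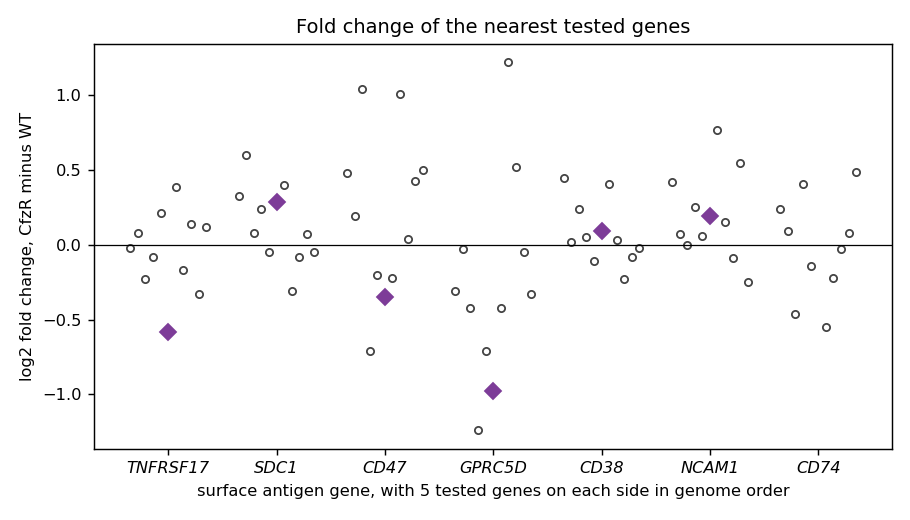
Log2 fold change, CfzR minus WT, of each tested surface antigen gene (diamond) and of the 5 nearest tested genes on each side (open circles, in genome order from left to right); CD74 has no diamond because it was not tested. GPRC5D at -0.98 and TNFRSF17 at -0.58 lie below most of their neighbours, and none of the neighbours passed the test.

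Among the neighbours of CD47 were further surface proteins, named after their values were seen. ALCAM (CD166), an adhesion molecule, stood at 9.74 and 7.46 FPKM in CfzR and 3.44 and 3.86 in WT. HHLA2, a member of the B7 family, stood at 5.24 and 4.59 FPKM in CfzR and 2.11 and 1.76 in WT. Both were higher in both CfzR libraries, with log2 fold changes of 1.04 and 1.01 and adjusted p of 0.150 and 0.163 by limma. CD47, which lies between them in genome order but adjoins neither, was at -0.35. Of the 10 neighbours of CD47, 4 were higher and 2 lower in both CfzR libraries, against 22.1% and 22.6% of all genes. The lower ones were CBLB (-0.71) and IFT57 (-0.22), also named after their values were seen.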

How the data were processed

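RNA of wild-type and carfilzomib-resistant ARP-1 cells was sequenced, with 2 libraries per group. The authors deposited FPKM values per Ensembl gene ID. Per the submitters' processing notes, the tools were STAR and Cufflinks. For versions, genome build, annotation and strandedness: not given in the sources used here. Depth is unknown. Columns named for a control were taken as WT, the only group other than CfzR.

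Symbols matched 15027 of 15201 IDs. Positions come from GENCODE release 29, and promoters from the RefSeq table (8 of the 10 antigens matched). Values were analysed as log2(FPKM + 1) in R 4.3.3 by limma 3.58.1, with a mean-variance trend, over 13411 genes whose mean reached 1 FPKM, two-sided, with Benjamini-Hochberg adjustment at 0.05. The procedure was tested on simulated data with independent noise in each library. The simulation held no length or GC trend and nothing shared between equal replicate numbers. It therefore cannot show how the procedure performs on these libraries. From each partner list the text names the 3 genes with the highest mean FPKM (6 for other surface targets) and any past the threshold, except 2 genes that are not reported here. Any other gene is said to be named after its values were seen. Neighbours are described as listed. The antigens, lists and tests were chosen with earlier results of these data known. Alternatives were pseudocounts of 0.1 and 5, no filter or one at 5 FPKM, TMM scaling, quantile normalization, no trend, a replicate block, each library left out and a threshold of 0.01. Equal sums of FPKM and a length and GC correction (splines with 4 degrees of freedom) were added after seeing the data.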

Additional observations from a re-analysis of the deposited data

How the results depend on the processing

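No tested antigen passed the threshold under any alternative except GPRC5D with a replicate block, which made the count of lower antigens 1 (log2 fold change -0.98, adjusted p = 2.57e-04). That fit keeps 1 residual degree of freedom and called 487 genes higher and 755 lower. It also called 1 higher and 1 lower in the CD38 and NAD list, 1 lower among ICAM and NCAM partners, and 4 higher and 3 lower among other surface targets. The labels do not say that equal numbers share a culture. Over genes, the differences between replicates 1 and 2 in CfzR and in WT correlated at 0.252. Outside the block, the adjusted p of GPRC5D ranged from 0.0931 to 0.777 and its log2 fold change from -1.10 to -0.70. SDC1, TNFRSF17 and CD47 kept their sign in every alternative, from 0.11 to 0.57, from -0.83 to -0.27 and from -0.68 to -0.02. CD38 turned with the length and GC correction (-0.05) and ranged from -0.29 to 0.47 with a library left out. NCAM1 ranged from -0.05 to 0.44 there.

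Counts over all genes, 33 higher and 14 lower as reported, moved more. With a filter at 5 FPKM there were 18 higher and 9 lower, at the 0.01 threshold 9 and 6, and with equal sums of FPKM 80 were higher. With a library left out there were 8 to 118 higher and 7 to 142 lower. Those fits leave a lone library, assumed to vary like the other group. Causes of these shifts were not tested. Precision is limited by 2 libraries per group and unknown depth.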
